A study of Homo sapiens with 9 samples.

Results

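The GALNT genes encode the polypeptide N-acetylgalactosaminyltransferases, the enzymes that start mucin-type O-glycosylation. The messenger RNA of 10 of them (GALNT1, GALNT2, GALNT3, GALNT5, GALNT6, GALNT7, GALNT10, GALNT11, GALNT12 and GALNT14) was followed through 9 RNA sequencing libraries in 3 groups. The genes were found by symbol among 70116 Ensembl gene IDs, and each symbol matched 1 ID. They were picked with their levels in these libraries known, so their values are a description. They are marked as called or not by the threshold given below, and their p-values are not printed.

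Each GALNT enzyme works in the Golgi, where it moves N-acetylgalactosamine (GalNAc) from the sugar nucleotide UDP-GalNAc onto a serine or threonine of a passing protein. Some members act on bare protein and others prefer a protein that already carries GalNAc, so that members working in turn can fill a stretch of sites. The GalNAc is then lengthened by other enzymes, mostly by C1GALT1, which adds galactose. The finished sugars shield secreted and membrane proteins from proteases and alter receptor processing and cell adhesion.

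The cells were U2OS, an established human osteosarcoma line, and a derivative in which PERK had been targeted by CRISPR/Cas9. EIF2AK3 encodes PERK, a stress kinase of the endoplasmic reticulum that phosphorylates the translation factor eIF2α, and palbociclib inhibits the cell cycle kinases CDK4 and CDK6. The groups were PERK knockout cells given palbociclib for 4 days, wild-type cells given palbociclib for 4 days, and wild-type cells given vehicle, with 3 libraries each, numbered as sets 1 to 3. They are called treated knockout, treated wild-type and vehicle wild-type cells below. Knockout cells on vehicle were not analysed here, so the effect of the knockout without the drug, and any interaction, could not be estimated. Whether the knockout line was 1 clone is not given in the sources used here. Nor is it stated whether the sets were separate cultures, so p-values measure spread among libraries that may be technical only.

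Library totals ran from 33674039 to 42577874 counts. EIF2AK3 was at 19.7, 18.7 and 17.8 CPM (counts per 1e6 counts of the library) in sets 1 to 3 of the treated knockout cells, against 35.7, 36.8 and 31.8 CPM in treated wild-type cells and 31.7, 34.8 and 32.8 CPM in vehicle wild-type cells. The knockout libraries were thus the lowest, with mRNA remaining, and no reading of PERK protein was made here. All 7 mesenchymal and osteosarcoma markers reached a mean of 1 CPM. Their summed level was 9080 to 11200 CPM in treated knockout cells, 9190 to 10600 CPM in treated wild-type cells and 5960 to 6490 CPM in vehicle wild-type cells. The 8 epithelial markers, 5 of them at 1 CPM or more, summed to 21.0 to 23.0, 32.4 to 33.2 and 33.0 to 35.0 CPM in the same order of groups. For 7 haematopoietic markers, of which 1 reached 1 CPM and CD3E was at 0, the sums were 3.75 to 4.85, 3.37 to 3.74 and 5.77 to 8.17 CPM. For 6 endothelial markers, 3 of them at 1 CPM, they were 7.30 to 7.94, 7.36 to 8.00 and 6.43 to 6.66 CPM. The part of these differences in the results below was not tested. In bulk RNA, fewer cells that express a gene and less of its RNA per cell cannot be told apart.

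RefSeq promoter sequences (assembly GRCh38.p14, 250 bases before to 50 after a start) were at hand for 8 of the 10 genes, in 11 windows. The 250 bases before the start are shown for GALNT2, the gene with the highest level, and for GALNT10 and GALNT14, the members with the largest fold changes between knockout and treated wild-type cells. The starts taken for GALNT2 and GALNT14 lie inside the genes as positioned below. Which starts were used in these cells was not determined. Capitals mark GGGCGG, the GC box, on either strand (read as CCGCCC on the other). The windows lie at chr1:230066988-230067237 on the plus strand, chr5:154190483-154190732 on the plus strand and chr2:31138441-31138690 on the minus strand, each written 5′ to 3′ along its gene.
GALNT2: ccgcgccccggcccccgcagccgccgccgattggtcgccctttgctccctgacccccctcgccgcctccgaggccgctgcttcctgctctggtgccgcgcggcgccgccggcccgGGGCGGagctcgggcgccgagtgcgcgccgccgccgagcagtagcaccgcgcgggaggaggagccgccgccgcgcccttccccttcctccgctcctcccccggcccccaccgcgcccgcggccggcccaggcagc
GALNT10: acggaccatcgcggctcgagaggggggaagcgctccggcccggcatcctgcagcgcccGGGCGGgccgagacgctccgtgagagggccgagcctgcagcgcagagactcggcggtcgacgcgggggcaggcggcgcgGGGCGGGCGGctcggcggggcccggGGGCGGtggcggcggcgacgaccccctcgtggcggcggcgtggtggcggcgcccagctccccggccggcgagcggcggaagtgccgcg
GALNT14: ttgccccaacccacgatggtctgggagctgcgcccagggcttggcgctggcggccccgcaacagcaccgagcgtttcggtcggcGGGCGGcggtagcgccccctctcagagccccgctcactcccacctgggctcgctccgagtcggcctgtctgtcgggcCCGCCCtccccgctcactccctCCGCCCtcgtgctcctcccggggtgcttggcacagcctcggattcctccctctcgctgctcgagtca
The 3 stretches are 82.8%, 82.4% and 72.4% G or C, in that order, against a median of 58.7% over all windows of the table, which run 50 bases further. They hold 1, 4 and 3 GC boxes, matches that overlap each other counted separately. Another window of GALNT14, at chr2:31129591-31129890 and not shown, is 45.0% G or C and holds no GC box. GGGCGG, a motif added after the sequences had been seen, was present in 8 of the 11 windows of the described genes and in 45.0% of 35116 windows of the same length. Of 5 other motifs searched on both strands, none was present in the 11 windows. They were TGATGNAA for ATF4 with C/EBP (3.62% of all windows), TGACGTGG for XBP1 and ATF6 (0.729%), CACGTG, the E-box and lysosomal gene core (7.26%), and TTTCCCGC (1.63%) and TTTGGCGC (0.652%) for E2F. The absence says only that these letters are not in these windows.

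Levels of different genes were compared as CPM per kilobase of exon, and GALNT2 led in every group. It averaged 70.4 ± 7.61 CPM per kilobase in treated knockout cells, 61.4 ± 3.12 in treated wild-type cells and 50.2 ± 2.97 in vehicle wild-type cells (SD, n = 3 each). That was 40.0 ± 1.98%, 40.9 ± 1.20% and 39.0 ± 0.379% of the summed level of all 20 GALNT family genes. The ranges of that share in treated knockout cells overlapped those of both other groups, and the ranges lay apart between treated and vehicle wild-type cells. GALNT1 and GALNT7 followed, GALNT7 at 18.0, 18.0 and 17.0 CPM per kilobase and GALNT1 at 17.1, 20.2 and 19.1, in the same order of groups. GALNT7 was the higher of the pair in knockout cells and GALNT1 in treated wild-type cells, with ranges apart in both, while their ranges overlapped in vehicle wild-type cells. The order of this pair depended on the length used, and with the longest transcript GALNT7 held the larger share in every group. Among the 10 described genes, GALNT14 and GALNT10 came next and changed places. Their ranges overlapped in treated knockout cells, where GALNT14 averaged 10.1 CPM per kilobase. In wild-type cells GALNT14 was above GALNT10 on palbociclib, at 7.96 against 7.43, and below it on vehicle, at 7.03 against 7.65, with ranges apart. GALNT6 (5.65, 4.86 and 3.69), GALNT11 (2.03, 1.89 and 1.71) and GALNT5 (1.45, 1.25 and 0.288 CPM per kilobase) followed in that order in each group, each range apart from its neighbours. GALNT12 and GALNT3 were at 0.148 CPM per kilobase or below in every group mean, and their ranges overlapped in all 3 groups. This order is that of the 10 described genes alone. Of the other family genes, GALNT16 averaged 16.5, 14.1 and 10.9 CPM per kilobase in the same order of groups, above GALNT14 and GALNT10 in each. GALNT15, at 15.8, 5.89 and 4.52, was above those 2 in treated knockout cells only. GALNT18, at 4.17, 3.31 and 2.94, averaged above GALNT11 in each group.

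**Figure D1:**
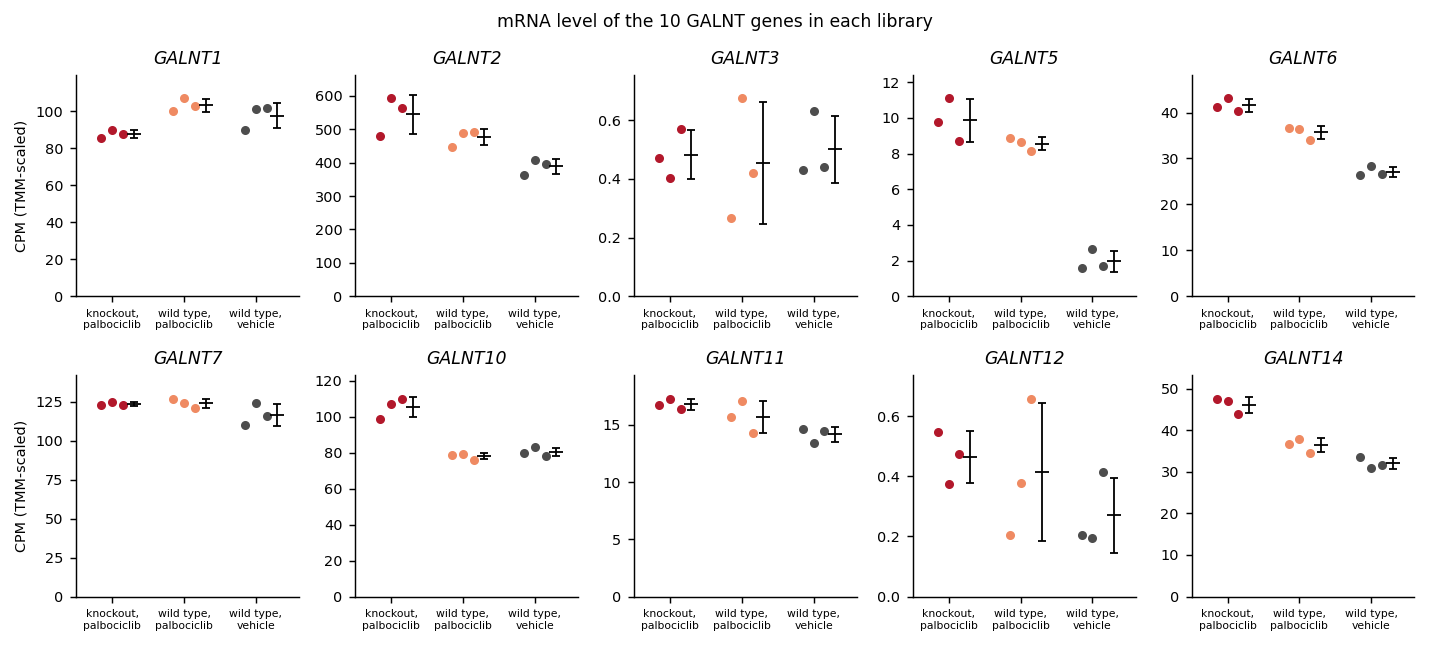
Level of each of the 10 genes in each library, in CPM scaled by TMM factors, each panel with its own linear axis from 0. Points are the 3 libraries of a group, sets 1 to 3 from left to right, and the bar beside them is mean ± SD. GALNT5 stands at 1.57 to 2.64 CPM on vehicle and at 8.16 CPM or more on palbociclib, and GALNT10 is at 98.9 CPM or more only in the knockout cells.

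The first comparison asked what 4 days of palbociclib did in wild-type cells. GALNT5, GALNT6, GALNT2 and GALNT14 were called higher on palbociclib and no member was called lower. A gene was called at an adjusted p under 0.05 in the edgeR quasi-likelihood test over 19408 genes, and 43.7% of them were called in this comparison, 21.3% as higher and 22.3% as lower. The members' median log2 fold change was 0.16, against −0.02 over all genes, and the ranges of the groups lay apart for 4 of 10 members and for 51.6% of all genes. Because the members were chosen with this contrast known, nothing is read from those counts.

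GALNT5 showed the largest difference. Its protein has a long stem between the membrane anchor and the catalytic part, and its expression is restricted to some tissues. The gene (ENSG00000136542.9) lies on chromosome 2 from 157257598 to 157314211 on the plus strand (GRCh38, as all gene positions here). It was at 8.87, 8.63 and 8.16 CPM in treated wild-type cells, against 1.57, 2.64 and 1.68 CPM in vehicle wild-type cells. The groups did not overlap, and the log2 fold change was 2.11 ± 0.155 (SE), or 4.32-fold. In the libraries this rested on 301 to 320 counts on palbociclib and 61 to 109 on vehicle.

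GALNT6, a close relative of GALNT3 known to modify fibronectin, lies on chromosome 12 from 51351247 to 51392867 on the minus strand (ENSG00000139629.16). It was at 36.7, 36.4 and 34.1 CPM on palbociclib, against 26.3, 28.3 and 26.7 CPM on vehicle in wild-type cells, with no overlap and a log2 fold change of 0.40 ± 0.0575. GALNT6 shares 392 exon bases with SLC4A8 on the opposite strand, which averaged 760.0 counts per library, and whether counting used strand is not given in the sources used here.

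GALNT2, a broad initiator that acts on many bare proteins, lies on chromosome 1 from 230057990 to 230282124 on the plus strand (ENSG00000143641.10). Its level was 448, 488 and 491 CPM in treated wild-type cells, against 363, 408 and 396 CPM in vehicle wild-type cells. All 3 libraries on palbociclib exceeded all 3 on vehicle, by a log2 fold change of 0.29 ± 0.0699. Set 1 was the lowest of its group on palbociclib and on vehicle, and with the set as a term in the model GALNT2 was among the genes called as differing between sets (1567 of 19408 genes, 8.07%, and 1 of the 10 members).

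GALNT14 is known for glycosylating the death receptor DR5, the product of TNFRSF10B, and lies on chromosome 2 from 30910467 to 31155202 on the minus strand (ENSG00000158089.15). It was at 36.6, 37.9 and 34.6 CPM in treated wild-type cells, against 33.6, 31.0 and 31.6 CPM in vehicle wild-type cells. The ranges lay apart, with a log2 fold change of 0.18 ± 0.0581. The call was lost without set 2 of the vehicle wild-type cells (0.15) and without set 2 of the treated wild-type cells (0.15).

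The other 6 members were not called. GALNT1 (0.08 ± 0.0529), GALNT7 (0.08 ± 0.0492), GALNT10 (−0.04 ± 0.0505) and GALNT11 (0.15 ± 0.0784) had log2 fold changes with small errors and overlapping ranges. GALNT11, which modifies NOTCH1, would have been called without set 3 of the treated wild-type cells (0.24). GALNT3, which protects the hormone FGF23 from cleavage, and GALNT12, best known from the colon, gave −0.14 ± 0.345 and 0.65 ± 0.433. They had 9 to 26 counts per library for GALNT3 and 7 to 25 for GALNT12, and the ranges of the groups overlapped for both.

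The second comparison set knockout against wild-type cells, both on palbociclib, and shares the wild-type palbociclib libraries with the first. In it, loss of PERK and any other difference between the edited line and its parent cannot be told apart. GALNT10, GALNT14, GALNT6 and GALNT2 were called higher in knockout cells and GALNT1 was called lower. Of all genes 27.9% were called, 14.9% as higher and 13.0% as lower. The members' median log2 fold change was 0.18, against 0.01 over all genes, and ranges lay apart for 4 of 10 members and for 41.3% of all genes. As before, nothing is read from the members' counts.

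GALNT10, an enzyme that prefers proteins already bearing GalNAc, lies on chromosome 5 from 154190730 to 154420984 on the plus strand (ENSG00000164574.16). It was at 98.9, 107 and 110 CPM in treated knockout cells, against 78.7, 79.3 and 76.0 CPM in treated wild-type cells. Every knockout library was above every wild-type library, those on vehicle at 80.0, 82.9 and 78.1 CPM included. The log2 fold change was 0.43 ± 0.0502, or 1.35-fold. GALNT10 shares 121 exon bases with MFAP3 on the same strand, a gene with 3116.2 counts per library on average.

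GALNT14 was at 47.6, 46.9 and 43.9 CPM in treated knockout cells, against 36.6, 37.9 and 34.6 CPM in treated wild-type cells, with no overlap and a log2 fold change of 0.34 ± 0.0572. GALNT6 was at 41.2, 43.1 and 40.4 CPM in knockout cells, against 36.7, 36.4 and 34.1 CPM in wild-type cells on the drug. Its ranges too lay apart, with a log2 fold change of 0.22 ± 0.0563, and its call was lost without set 3 of the treated wild-type cells (0.17).

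GALNT2 was at 479, 593 and 563 CPM in knockout cells, against 448, 488 and 491 CPM in treated wild-type cells. Set 1 of the knockout cells fell inside the wild-type range, so the groups overlapped, with a log2 fold change of 0.20 ± 0.0698. Within each set the knockout library was above the treated wild-type library of the same number. The call of GALNT2 held in 7 of 16 alternative analyses, the fit with the set as a term among them. It was lost with RLE size factors (0.18) and in the 6 compared libraries alone (0.19). It was also lost without set 2 (0.20) or set 3 (0.20) of the vehicle wild-type cells, without set 1 (0.15), set 2 (0.22) or set 3 (0.20) of the treated wild-type cells, and without set 2 (0.13) or set 3 (0.17) of the knockout cells.

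GALNT1 was the member called lower. It is a broad initiator like GALNT2 and lies on chromosome 18 from 35581117 to 35711834 on the plus strand (ENSG00000141429.14). It was at 85.7, 90.1 and 87.7 CPM in treated knockout cells, against 100, 107 and 103 CPM in treated wild-type cells. The groups lay apart, with a log2 fold change of −0.24 ± 0.0531. The range of vehicle wild-type cells, 90.0 to 102 CPM, met that of the knockout cells.

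The 5 members not called between knockout and treated wild-type cells were GALNT5, GALNT7, GALNT11, GALNT3 and GALNT12. GALNT5, the member that differed most with palbociclib, stood at 9.79, 11.1 and 8.68 CPM in knockout cells, against 8.87, 8.63 and 8.16 CPM in treated wild-type cells. The ranges overlapped, and the log2 fold change was 0.20 ± 0.130. GALNT7, which like GALNT10 prefers proteins already bearing GalNAc, lies on chromosome 4 from 173168753 to 173323967 on the plus strand (ENSG00000109586.12). It was at 123, 125 and 123 CPM in knockout cells and at 127, 124 and 121 CPM in treated wild-type cells, a log2 fold change of 0.00 ± 0.0491. GALNT11, on chromosome 7 from 152025674 to 152122347, gave 0.10 ± 0.0775. GALNT3, on chromosome 2 from 165747591 to 165794682, gave 0.09 ± 0.347, and GALNT12, on chromosome 9 from 98807699 to 98850081, gave 0.16 ± 0.394.

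**Figure D2:**
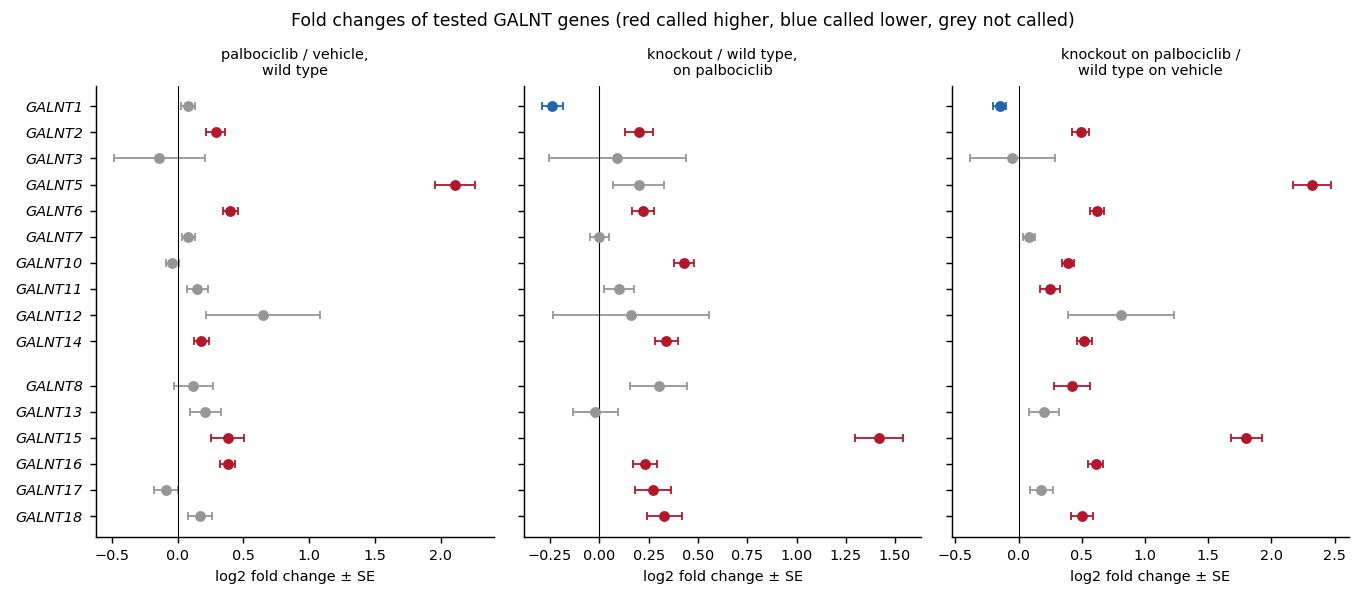
Log2 fold change ± SE of the 16 tested family genes, the 10 described genes above and the 6 others below, each panel with its own linear x axis. From left to right the panels show palbociclib against vehicle in wild-type cells, treated knockout against treated wild-type cells, and treated knockout against vehicle wild-type cells. Red points were called higher, blue lower and grey not called. GALNT5 has the largest value on the left (2.11) and GALNT15 in the middle (1.42).

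Knockout cells on palbociclib and vehicle wild-type cells differ in genotype and drug at the same time. Here GALNT5, GALNT6, GALNT14, GALNT2, GALNT10 and GALNT11 were called higher in the treated knockout cells and GALNT1 lower, where 51.7% of all genes were called, 25.7% as higher and 26.0% as lower. The log2 fold changes were 2.32 ± 0.153 for GALNT5 (4.98-fold), 0.62 ± 0.0570 for GALNT6, 0.52 ± 0.0574 for GALNT14, 0.49 ± 0.0700 for GALNT2 and 0.39 ± 0.0501 for GALNT10. Ranges lay apart for each of these 5 and for GALNT11, 6 of 10 members in all, as for 58.5% of all genes. GALNT11 was at 16.7, 17.3 and 16.4 CPM in treated knockout cells, against 14.6, 13.4 and 14.5 CPM in vehicle wild-type cells, a log2 fold change of 0.25 ± 0.0777 whose call was lost without set 2 of the vehicle wild-type cells (0.21). GALNT1 gave −0.15 ± 0.0530 with overlapping ranges. Its call was lost without set 2 (−0.13) or set 3 (−0.12) of the vehicle wild-type cells and without set 1 (−0.14) or set 3 (−0.15) of the knockout cells. GALNT7 (0.08 ± 0.0491), GALNT3 (−0.05 ± 0.338) and GALNT12 (0.81 ± 0.421) were not called, and GALNT12 would have been without set 3 of the vehicle wild-type cells (1.22).

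The members thus fell into several patterns over the 3 groups. GALNT5 was high in both groups on palbociclib, GALNT10 was high in the knockout cells alone, and GALNT6 and GALNT14 stepped upward at each contrast, lowest on vehicle and highest in the knockout cells. GALNT7 had overlapping ranges throughout. Genes whose log2 CPM followed such a pattern most closely over the 9 libraries were looked up among 11081 candidates with a mean of at least 5 CPM. The groups, sets and depth are shared by all points, so the correlations are descriptions. Closest to GALNT5 were FGGY (Pearson r = 0.995), CPNE4 (0.994) and RHOBTB1 (0.993). RHOBTB1 averaged 99.6 CPM in treated knockout cells, 94.1 in treated wild-type cells and 57.5 in vehicle wild-type cells. Closest to GALNT10 were TUBGCP2 (0.980), a subunit of the γ-tubulin ring complex, KCNH3 (0.978) and NUBP2 (0.977). TUBGCP2 averaged 106, 71.0 and 71.5 CPM in the same order of groups. Closest to GALNT1 were RAB39B (0.984), A2M (0.982) and TSC22D3 (0.958), and A2M, which encodes a protease inhibitor, averaged 6.24, 23.6 and 13.4 CPM.

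An edited line can differ from its parent over whole stretches of a chromosome, so each gene was set beside the other tested genes within 5 Mb on either side. For GALNT1 the 34 neighbours had a median log2 fold change of −0.30 ± 0.0252 in treated knockout against treated wild-type cells, with 18 called lower and 3 called higher. The SD is over the 3 knockout libraries, each set against the mean of the treated wild-type libraries. It leaves out the spread among the wild-type libraries. GALNT1 itself, at −0.24, lay 0.07 above that median. For GALNT10 the 68 neighbours had a median of 0.20 ± 0.0113, with 33 called higher and 3 called lower, and GALNT10 lay 0.23 above it. The neighbours of the other called members lay near 0, with medians of −0.06 for GALNT2 (77 genes), 0.02 for GALNT6 (198 genes) and −0.04 for GALNT14 (83 genes). These members exceeded their neighbours' medians by 0.25, 0.20 and 0.38. DNA copy number was not measured, and the part of the neighbourhoods of GALNT1 and GALNT10 in their own values was not tested.

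**Figure D3:**
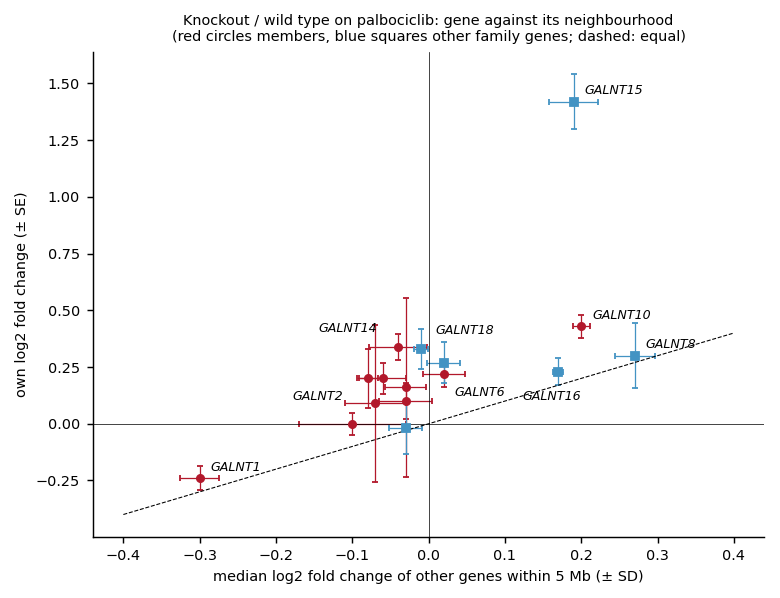
Each point is a family gene, with its own log2 fold change ± SE in treated knockout against treated wild-type cells on the y axis and the median of its neighbours within 5 Mb on the x axis, both on linear scales. The x error is the SD over 3 knockout libraries, each set against the mean of the treated wild-type libraries. Red circles are the 10 described genes, blue squares the 6 other tested family genes, and the dashed line marks equal values. GALNT1 lies near the line at a neighbour median of −0.30, while GALNT15 (1.42 against 0.19) lies far above it.

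The family has 10 further genes, of which 6 could be tested. In treated knockout against treated wild-type cells 4 of the 6 were higher and none lower, with a median log2 fold change of 0.28. Of all genes 14.9% were called higher there and 13.0% lower, and nothing is read from the count of these few genes. GALNT15 rose most. It was at 86.3, 102 and 96.0 CPM in treated knockout cells, against 33.5, 37.0 and 35.8 CPM in treated wild-type cells, and the lowest knockout library was above the highest wild-type one. The log2 fold change was 1.42 ± 0.122, or 2.68-fold (edgeR, adjusted p = 2.87e-05), and lay 1.23 above the median of 62 neighbours. GALNT16 was at 174, 185 and 177 CPM in knockout cells, against 145, 150 and 162 CPM in treated wild-type cells. It rose by 0.23 ± 0.0596 on the log2 scale (adjusted p = 0.00635 in edgeR) and stood 0.06 above the median of its 104 neighbours. That median was 0.17, with 33 neighbours called higher and 2 lower. The part of this neighbourhood in the GALNT16 value was not tested. GALNT18 rose by 0.33 ± 0.0868 (edgeR adjusted p = 0.00655), a call lost without set 3 of the treated wild-type cells (0.24, adjusted p = 0.0511). GALNT17 rose by 0.27 ± 0.0914 (edgeR adjusted p = 0.0350). That call was lost with DESeq2 (0.25, adjusted p = 0.0521), without any 1 library of the treated wild-type cells (0.24 to 0.28, adjusted p = 0.0683 to 0.112), and without set 2 (0.22, adjusted p = 0.148) or set 3 (0.28, adjusted p = 0.0566) of the knockout cells. GALNT8 (0.30 ± 0.144, adjusted p = 0.136) and GALNT13 (−0.02, adjusted p = 0.934) did not pass the edgeR test.

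Palbociclib against vehicle in wild-type cells gave 2 higher and none lower among the same 6 genes, with a median of 0.19. Of all genes 21.3% were called higher there and 22.3% lower. GALNT16 stood at 145, 150 and 162 CPM on palbociclib, against 105, 121 and 126 CPM on vehicle, and rose by 0.38 ± 0.0601 on the log2 scale (edgeR adjusted p = 4.14e-05). GALNT15 was at 33.5, 37.0 and 35.8 CPM on palbociclib, against 21.6, 28.4 and 31.6 CPM on vehicle (0.38 ± 0.127, edgeR adjusted p = 0.0368). The GALNT15 call was lost without set 2 of the vehicle wild-type cells (0.42, adjusted p = 0.0629), without set 1 (0.42, adjusted p = 0.0514), set 2 (0.35, adjusted p = 0.108) or set 3 (0.40, adjusted p = 0.0957) of the treated wild-type cells, and without set 3 of the knockout cells (0.38, adjusted p = 0.0604). GALNT15, like GALNT2, was called as differing between sets. GALNT18, not called here, was called without set 3 of the treated wild-type cells (0.27, adjusted p = 0.0248).

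Knockout cells on palbociclib against vehicle wild-type cells gave 4 higher and none lower of the 6, where 25.7% of all genes were called higher and 26.0% lower. GALNT15 (1.80 ± 0.124, edgeR adjusted p = 1.93e-06), GALNT16 (0.61, edgeR adjusted p = 6.53e-08) and GALNT18 (edgeR adjusted p = 6.29e-05) rose. So did GALNT8 (edgeR adjusted p = 0.0206), but not without set 3 of the vehicle wild-type cells (0.37, adjusted p = 0.0706) or without set 2 (0.35, adjusted p = 0.0842) or set 3 (0.37, adjusted p = 0.0741) of the knockout cells. GALNT8 shares 4237 exon bases with KCNA6, which averaged 336.8 counts per library, and 1818 with AC005833.1, both on the same strand. The 134 neighbours of GALNT8 within 5 Mb had a median of 0.26 here, with 63 called higher and 19 lower. The part of either in the GALNT8 values was not tested. GALNT17 (adjusted p = 0.111) passed only without set 3 of the vehicle wild-type cells (0.27, adjusted p = 0.0208). GALNT4, GALNT9, GALNTL5 and GALNTL6 were too low to test. GALNT9 was listed at 0 in every library, and GALNT4, with 26 counts in all, shares 5033 exon bases with the read-through gene POC1B-GALNT4. How reads common to that pair were assigned is not given in the sources used here.

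Over the whole family the summed level was 176 ± 10.8 CPM per kilobase in treated knockout cells, 150 ± 3.78 in treated wild-type cells and 129 ± 6.84 in vehicle wild-type cells (SD, n = 3 each). The ranges of the 3 groups, 164 to 185, 146 to 153 and 121 to 133, did not overlap. GALNT15 made up 8.98 ± 0.227% of the sum in treated knockout cells, 3.92 ± 0.0974% in treated wild-type cells and 3.50 ± 0.505% in vehicle wild-type cells. GALNT1 made up 9.77 ± 0.370%, 13.4 ± 0.182% and 14.8 ± 0.280% in the same order, with all 3 ranges apart. The 10 described genes together held 76.9 ± 0.304%, 82.1 ± 0.292% and 83.0 ± 0.888%, with the knockout range apart from both wild-type ranges and the wild-type ranges overlapping.

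**Figure D4:**
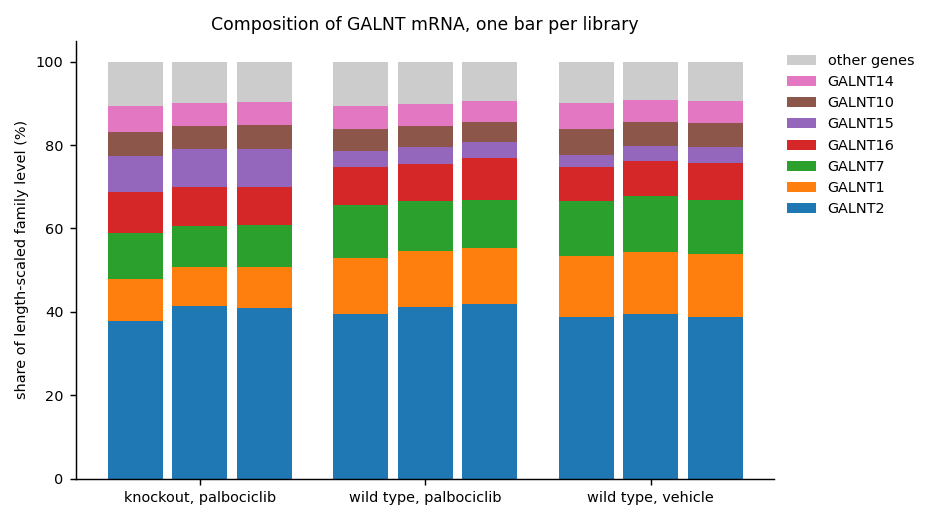
Share of each gene in the summed CPM per kilobase of the 20 family genes, in percent, with 1 stacked bar per library (sets 1 to 3 from left to right in each group) and the genes not named pooled in grey. GALNT2 takes 37.7 to 41.3% in treated knockout cells, and the GALNT15 layer is 8.74 to 9.20% there, against 3.82 to 4.01% in treated wild-type cells and 2.98 to 3.98% in vehicle wild-type cells.

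Other steps of the pathway were followed in lists chosen by function. Of all genes, 21.3% were called higher and 22.3% lower with palbociclib in wild-type cells. In treated knockout against treated wild-type cells 14.9% were called higher and 13.0% lower. The lists were chosen with earlier results of these data known, so nothing is read from their counts. Of 13 core and cap enzymes, which lengthen and finish the sugar that GALNT enzymes start, 8 were tested. With palbociclib in wild-type cells 4 rose and 1 fell (median log2 fold change 0.19). B3GNT3, an N-acetylglucosaminyltransferase, rose by 0.75 ± 0.104 (edgeR adjusted p = 8.15e-06). C1GALT1, which adds the first galactose, was at 155 ± 8.03 CPM in treated wild-type cells and 127 ± 6.22 CPM in vehicle wild-type cells (SD, n = 3 each; 0.28 ± 0.0505, edgeR adjusted p = 0.000124). In treated knockout against treated wild-type cells 2 rose and none fell (median −0.10). GCNT1, which branches the chain to make core 2, was at 33.7 ± 2.92 CPM in knockout cells and 19.4 ± 1.08 CPM in treated wild-type cells (0.79 ± 0.0785, edgeR adjusted p = 2.01e-07). The chaperone gene C1GALT1C1, which active C1GALT1 needs, was listed at 0 in every library and was not tested. Since most cells use that gene, a gene at 0 here is given only as listed at 0. Blocking on the set gave 5 higher and 2 lower with palbociclib, and 2 and 2 in the knockout comparison. With palbociclib 3 rose and none fell without set 2 of the vehicle wild-type cells, and 4 rose and none fell without their set 3 or without set 1 of the treated wild-type cells. In the knockout comparison 1 rose without set 3 of the treated wild-type cells, and 1 rose and 1 fell without set 2 of the knockout cells.

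Of 15 genes that supply sugar nucleotides 14 were tested. The gene not tested, SLC35A2, had 1 count in all and, like C1GALT1C1, is given only as listed. With palbociclib in wild-type cells 7 rose and 4 fell, and in treated knockout against treated wild-type cells 4 rose and 5 fell. UAP1, which makes UDP-GlcNAc and UDP-GalNAc, fell in both. It was at 64.7, 64.1 and 58.2 CPM in treated knockout cells, 112, 113 and 105 CPM in treated wild-type cells and 131, 124 and 127 CPM in vehicle wild-type cells. The 3 groups did not overlap, and the log2 fold change was −0.82 ± 0.0528 between knockout and treated wild-type cells (edgeR adjusted p = 6.45e-10) and −0.21 ± 0.0516 between palbociclib and vehicle (edgeR adjusted p = 0.00236). GNPNAT1, of the same route, also fell in both, by 0.28 each time on the log2 scale. NAGK, which recycles GlcNAc, rose by 0.42 ± 0.0520 with palbociclib in wild-type cells (edgeR adjusted p = 1.82e-06), and GFPT2, an entry enzyme of the route, rose by 0.37 in treated knockout against treated wild-type cells. The numbers of rising genes rested on few libraries. With palbociclib 4 rose without set 3 of the vehicle wild-type cells and 3 without set 1 or set 2 of the treated wild-type cells. In the knockout comparison 2 rose without set 3 of the treated wild-type cells or set 1 of the knockout cells, and 1 without set 2 of the knockout cells.

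Of 15 O-glycoprotein carriers 13 were tested. With palbociclib in wild-type cells 8 rose and 3 fell (median 0.31), and in treated knockout against treated wild-type cells none rose and 3 fell (median −0.10). FN1, encoding fibronectin, a carrier that GALNT6 modifies, was at 1660 ± 172 CPM in treated wild-type cells and 770 ± 84.9 CPM in vehicle wild-type cells (SD, n = 3 each), and differed by 1.11 ± 0.132 on the log2 scale (edgeR adjusted p = 0.000225). TNFRSF10B, the DR5 gene that goes with GALNT14, was at 72.2, 80.3 and 78.4 CPM in treated knockout cells, 84.3, 91.5 and 91.7 CPM in treated wild-type cells and 72.9, 70.4 and 69.7 CPM in vehicle wild-type cells. It thus fell by 0.21 ± 0.0526 on the log2 scale in treated knockout against treated wild-type cells (edgeR adjusted p = 0.00443), where GALNT14 was higher. NOTCH1, a protein modified by GALNT11, fell by 0.42 ± 0.0637 with palbociclib in wild-type cells (edgeR adjusted p = 2.26e-05). FGF23, the hormone that GALNT3 protects, was at 0.0589 CPM or less in every library. With the set as a block 1 carrier rose and 6 fell in the knockout comparison. FN1, at 1100, 1450 and 1440 CPM in treated knockout cells against 1470, 1710 and 1810 CPM in treated wild-type cells, was not called in the main model (−0.32, edgeR adjusted p = 0.111). It was called lower with the block (−0.33, edgeR adjusted p = 1.18e-07), with limma-voom (−0.33, adjusted p = 0.0179) and without robust fitting (−0.32, edgeR adjusted p = 0.0219). Without set 1 of the knockout cells 1 carrier rose and 2 fell, and without their set 2 only 1 fell.

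Enzymes that start other kinds of O-glycosylation, and the machinery around the GALNT enzymes, were followed in the same way. Of 12 tested starters of other O-linked sugars 3 rose and 2 fell in treated knockout against treated wild-type cells, and 2 rose and 1 fell with palbociclib in wild-type cells. TMTC1, an O-mannosyltransferase, rose in the knockout comparison by 0.65. With the block these counts were 4 and 4 in the knockout comparison and 3 and 3 with palbociclib. Leaving out 1 library moved them as far as 3 and 4 in the knockout comparison, without set 3 of the treated wild-type cells, and 1 and 2 with palbociclib, without set 2 of the vehicle wild-type cells. Of 11 tested subunits of oligosaccharyltransferase, which starts N-glycosylation, 1 rose and 4 fell in the knockout comparison, and 3 rose and 2 fell with palbociclib. RPN2, a listed subunit that was not tested, had 4 counts in all and, like C1GALT1C1, is given only as listed. The 2 falls with palbociclib were 1 in every alternative but the block, with 5 rises, and the fit without set 1 of the vehicle wild-type cells. Of 14 tested golgins and Golgi matrix proteins, which hold the cisternae where GALNT enzymes reside, 8 rose and none fell with palbociclib in wild-type cells (median 0.20). GOLGB1 rose by 0.60 and USO1 by 0.49. In treated knockout against treated wild-type cells 2 golgins rose and 3 fell, BLZF1 by 0.73 on the log2 scale (median −0.07). With the block 3 rose and 5 fell, and 1 rose and 3 fell without set 2 of the treated wild-type cells or without set 2 or set 3 of the knockout cells. In treated knockout against vehicle wild-type cells 3 core and cap enzymes rose and none fell (5 and 0 with the block), 6 sugar supply genes rose and 3 fell, and 4 carriers rose and 4 fell (8 and 4 with the block). Of the other starters 6 rose and 4 fell, of the oligosaccharyltransferase subunits 3 rose and 2 fell, and of the golgins 6 rose and 1 fell. In that comparison 25.7% of all genes were called higher and 26.0% lower.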

How the data were processed

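Poly(A)-selected RNA from 9 libraries was sequenced. The deposited values are raw, whole-number counts per gene for each library, which the authors neither normalized nor pooled. The submitters' processing notes name STAR 2.7.9a, Trim Galore, FastQC, CASAVA, DESeq2 and the build hg38, with no roles. Which program counted reads, with which annotation and whether by strand, is not given in the sources used here. How reads of overlapping genes were assigned is unknown. Positions and exon lengths came from GENCODE release 29 (GRCh38), matched for 58261 of 70116 IDs. Of the IDs 62700 carried a symbol.

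The quasi-likelihood F test of edgeR 4.0.16 was run in R 4.3.3 with limma 3.58.1, robust fitting, TMM factors of 0.977 to 1.01 and the default low-count filter, which kept 19408 genes (99.91% of counts). The model had 3 groups, all 9 libraries and 6 residual degrees of freedom, and p-values were adjusted by Benjamini and Hochberg over all genes tested. The SE of a log2 fold change is its size divided by the square root of F. CPM values are scaled by TMM factors. The biological coefficient of variation was 5.99%, and replicates differed by more than sampling noise in every pair (chi-square over degrees of freedom of 3.45 to 10.7). The test was checked on simulated counts.

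The members and lists were chosen with earlier results of these data known. Named genes were all GALNT family genes, EIF2AK3, up to 3 called genes per list, direction and comparison with the largest fold change (mean of at least 1 CPM), and the 3 genes closest in pattern to the members at either end of the first 2 comparisons. TNFRSF10B with its values in all groups, RHOBTB1, A2M and TUBGCP2 levels, and C1GALT1C1, FGF23, SLC35A2 and RPN2 were chosen for mention after their values were seen. Some items are withheld and not reported.

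The groups share their set numbers, per the labels. In 12907 genes whose mean log2 CPM exceeded 1, deviations from group means correlated at 0.175 to 0.539 in all 9 pairs with the same number and at −0.401 to 0.0704 in pairs with different numbers. Over all tested genes 6 of the 9 exceeded 0.1. By these correlations, and by no label, the libraries appear paired by number. The main model, which gave the calls above, did not include the set. A fit that blocks on the set was run as an alternative. The other alternatives were RLE size factors, DESeq2 1.42.0, limma-voom, no filter, no robust fitting, the 6 compared libraries alone and leaving out each library. Transcript length and the neighbourhood window were varied too.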

Additional observations from a re-analysis of the deposited data

How the results depend on the processing

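Of 768 values of family genes under alternative settings, 732 kept their side of the threshold, 32 lost a call and 4 gained one. No called value changed sign, and 18 alternatives of values that were not called did, among them GALNT3 in all 3 comparisons, GALNT7 (−0.03 to 0.02), GALNT12 (−0.15 to 0.65) and GALNT13 (−0.10 to 0.04) in treated knockout against treated wild-type cells, and GALNT10 (−0.06 to 0.00) and GALNT17 (−0.17 to 0.01) in palbociclib against vehicle. The range of GALNT3 was −0.53 to 0.12 in palbociclib against vehicle and −0.17 to 0.48 in treated knockout against treated wild-type cells. In treated knockout against treated wild-type cells, leaving out 1 library at a time gave 2 to 4 members called higher and 1 in each case called lower, and 2232 to 3047 and 2026 to 2687 of all genes. The lowest member count, 2, came without set 3 of the treated wild-type cells. In palbociclib against vehicle it gave 3 to 5 higher and 0 lower, and 3621 to 4127 and 3655 to 4315 of all genes. In treated knockout cells against vehicle wild-type cells it gave 5 to 7 higher and 0 to 1 lower, and 4466 to 5258 and 4548 to 5096 of all genes. With the longest transcript in place of merged exons, the share of GALNT2 was 42.8% in treated knockout cells, 43.6% in treated wild-type cells and 41.7% in vehicle wild-type cells. GALNT7 then held a larger share than GALNT1 in every group. In treated knockout cells GALNT10 then held a larger share than GALNT14, at 6.18% against 5.93%.

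With the replicate block, members called higher and lower stayed at 4 and 1 in treated knockout against treated wild-type cells, 4 and 0 in palbociclib against vehicle, and 6 and 1 in treated knockout against vehicle wild-type cells, and the block changed no call of a family gene. Of all genes the block called 3786 and 3282, 4714 and 5048, and 5551 and 5603, in the same order. GALNT3 and GALNT12 had 7 to 26 counts per library.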
